A study of Mus musculus with 24 samples.

Results

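The genes described here are 10 transcripts that mark macrophages or leukocytes in general: Ptprc, Adgre1, Cd68, Marco, Mrc1, Csf1r, Ctss, Tyrobp, Fcer1g and C1qa. They were chosen by name, as a gauge of immune cells carried into alveolar epithelial cell (AEC) cultures, and not by a cut on any measured value. Earlier results of these data were known when they were chosen. They are 10 of 55421 mouse gene rows in the count table. All 10 were among the 18046 genes that passed the filter on low counts, but the filter was met within the 6 day 0 libraries alone, with at least 3 of them at its minimum, by 7. Adgre1, Marco and C1qa reached it in 2, 1 and 0 of the 6 and passed only with the help of cultured libraries, so a change from day 0 in them is given as values and read as no finding.

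The libraries were bulk RNA-seq of alveolar epithelial type 2 (AEC2) cells from Krt8+/+ mice and from global keratin 8 null (Krt8-/-) mice, taken on day 0 and after 1, 3 and 7 days on a stiff laminin-coated surface, a setting in which AEC2 cells flatten and take on transitional and AEC1-like features. Each of the 8 groups, made of 2 genotypes and 4 days, held 3 libraries. The labels place them in 3 batches, each with a biological replicate number and a date, here batches 1, 2 and 3, and each batch holds both genotypes and all 4 days. They do not say whether a batch was 1 cell preparation. The labels and methods at hand state no other allele or agent, neither age nor sex of the mice, nor how many mice were pooled. Without the batch in the fit, the p-values measure the spread between batches, which may be partly technical. With the batch as a block, each batch's own level is taken out and the p-values measure the spread that is left.

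Macrophages are resident phagocytes of every tissue, and in the lung the airspaces hold their own population, the alveolar macrophages. They lie on the same epithelium from which AEC2 cells are isolated, which is why leukocyte transcripts are a common check on such preparations. Alveolar macrophages are known for the scavenger receptor Marco, the mannose receptor Mrc1 and the lectin Siglecf, whereas interstitial macrophages and monocytes are known for C1q, Cx3cr1 and Ccr2. In bulk RNA, fewer macrophages and less of a transcript per macrophage cannot be told apart, and a level in CPM (read counts scaled to library size with TMM factors) is relative to the RNA of all cells in the sample.

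Total counts ran from 10184439 to 19483386 per library. Krt8 lay between 485 and 5092 CPM in the Krt8+/+ libraries and between 21.2 and 47.4 CPM in the Krt8-/- libraries, so the targeted gene followed the labels. The defining AEC2 genes were abundant on day 0, with Sftpc at a mean of 186781 CPM and Sftpa1 at 49396 CPM, and the epithelial genes Cdh1 and Epcam averaged 1083 and 350 CPM. Xist and the Y-linked transcripts showed that in batch 1 the Krt8+/+ libraries carried Xist at 62.4 to 79.5 CPM, while the Krt8-/- libraries carried summed Y-linked transcripts at 173 to 191 CPM. In batch 2 both genotypes lacked the Y-linked transcripts beyond 0.241 CPM, and in batch 3 both carried them at 174 to 229 CPM. Genotype and sex therefore cannot be told apart within batch 1.

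Macrophage transcripts were a small part of every library, and their amount was set apart first by batch. The 10 genes together made up 0.000666% to 0.0365% of all reads. In Krt8+/+ cells on day 0 their summed level was 75.1, 44.7 and 15.6 CPM in batches 1, 2 and 3. On day 1 it was 366, 223 and 45.5 CPM, on day 3 it was 273, 79.8 and 28.8 CPM, and on day 7 it was 317, 95.1 and 10.9 CPM. The 3 batches kept this order on every day, with batch 1 highest and batch 3 lowest.

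The Krt8-/- libraries showed the same order of batches. Their summed level was 58.6, 38.4 and 8.73 CPM on day 0 and 210, 160 and 42.6 CPM on day 1. It was 177, 77.4 and 22.7 CPM on day 3, and 164, 44.0 and 10.9 CPM on day 7. Batch 1 exceeded batch 3 by 4.81-fold to 29.1-fold and batch 2 by 1.32-fold to 3.73-fold over the 8 groups.

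**Figure D1:**
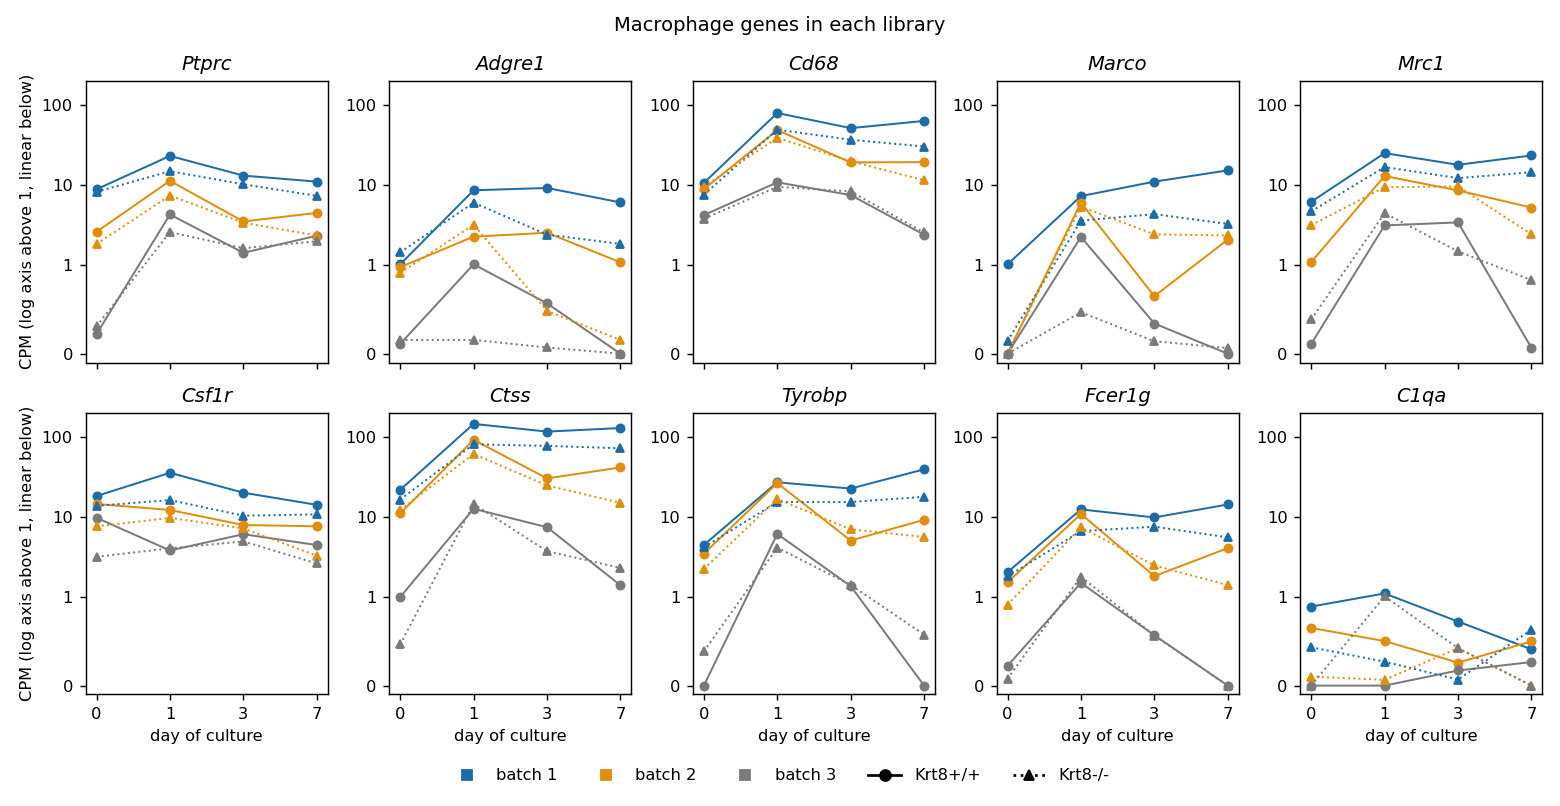
Level of each of the 10 macrophage genes in each of the 24 libraries, in CPM on an axis that is logarithmic above 1 and linear below, against day of culture. Colours are batches and symbols are genotypes, and each point is 1 library. For 9 of the genes batch 1 is highest and batch 3 lowest in most groups, while C1qa stays at or under 1.1 CPM.

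Gene by gene the order was nearly uniform. Of the 80 combinations of gene and group, 70 fell from batch 1 to 2 to 3, 73 were highest in batch 1 and 75 were lowest in batch 3. Over all genes tested, 18.6% of such combinations fell in that order, and 107 of 18046 genes (0.593%) did so in at least 7 of the 8 groups. Ptprc, Adgre1, Mrc1, Csf1r and Ctss fell in all 8 groups, Cd68, Tyrobp and Fcer1g in 7, Marco in 5 and C1qa in 4. The median fold of batch 1 over batch 3 was 21.3 for Ctss, 10.9 for Tyrobp, 6.05 for Ptprc and 3.66 for Csf1r, with medians taken over the 8 groups for Ctss, Ptprc and Csf1r and over the 6 groups with any batch 3 reads for Tyrobp.

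Other leukocyte genes were read in the same way, from lists of cell type markers. The alveolar macrophage markers fell in the order of batches 1, 2 and 3 in 49 of 56 combinations (87.5%), the genes shared by leukocytes in 87 of 104 (83.7%), and the receptors and kinase that work with Tyrobp and Fcer1g in 38 of 48 (79.2%). Scavenger and engulfment receptors did so in 19 of 32 (59.4%), fibroblast markers in 25 of 48 (52.1%), colony-stimulating factors and receptors in 19 of 40 (47.5%) and the C1q partners in 7 of 16 (43.8%). The AEC2 markers did so in 5 of 56 (8.93%), the B cell markers in 10 of 32 (31.2%) and the monocyte and interstitial macrophage markers in 11 of 40 (27.5%). The genes within a list share their libraries and are not independent.

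The second pattern was a higher level after the first day of culture. Between day 0 and day 1 the summed level of the 10 genes went up 4.87-fold, 4.99-fold and 2.91-fold in Krt8+/+ batches 1, 2 and 3, and 3.58-fold, 4.16-fold and 4.88-fold in Krt8-/-. Ptprc, Adgre1, Cd68, Marco, Mrc1, Ctss, Tyrobp and Fcer1g were each higher on day 1, by any margin in CPM, in 6 of 6 pairs of libraries from 1 batch and genotype. Of all genes tested 28.1% were higher in 6 of 6 pairs. For Adgre1 the pair from batch 3 of Krt8-/- had 2 reads on both days and differed only through the scaling. Csf1r was higher in 4 of 6 and C1qa in 2 of 6.

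In edgeR's quasi-likelihood test without the batch as a term, 1 of the 10 genes was called higher on day 1 in Krt8+/+ cells (Cd68, adjusted p = 0.0387), where 26.2% of all genes tested were called higher. That call was lost when batch 1 or batch 2 was left out. In Krt8-/- cells 0 of the 7 genes that met the filter on day 0 were called, against 23.7% of all genes, with Marco as the 1 call among the other genes. Among the 7, Cd68 alone had an unadjusted p under 0.05 by edgeR (0.0377), and DESeq2 called that gene. Because the labels give each group a library from each of the 3 dates, the batch was also fitted as a block. With it, 6 of the 7 genes were called higher in Krt8+/+ (27.7% of all genes) and 6 of 7 in Krt8-/- (25.8%), the same 6 in both: Ptprc, Cd68, Mrc1, Ctss, Tyrobp and Fcer1g. The median log2 change of the 7 genes was 2.81 in Krt8+/+ and 2.28 in Krt8-/- in the fit with the block, beside -0.01 and -0.02 over all genes tested. Leaving out 1 batch in the fit with the block gave 5 to 6 calls in Krt8+/+ and 4 to 6 in Krt8-/-, the lowest without batch 2. The share of all genes called in those fits is not given. Adgre1 and Marco were also called with the block, which their filtering from cultured libraries favours.

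**Figure D2:**
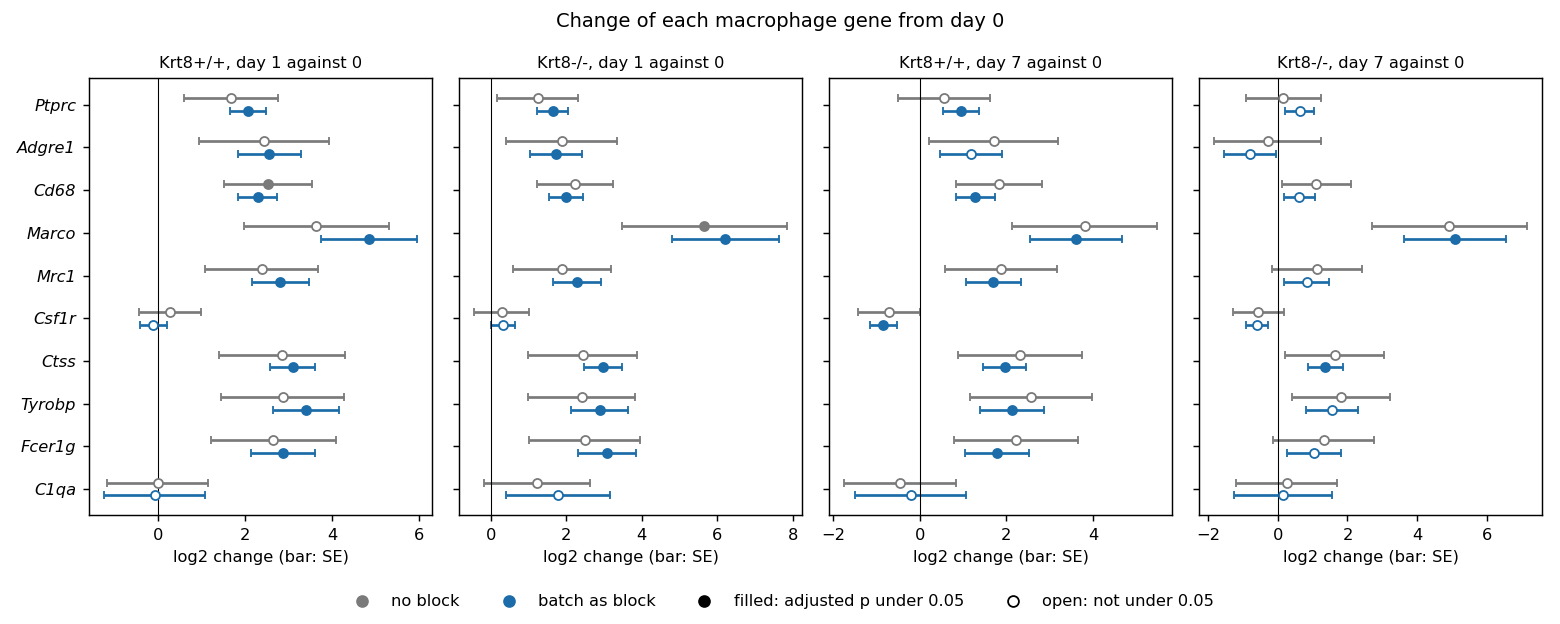
Log2 change of each macrophage gene on day 1 and day 7 against day 0 in each genotype, with its standard error as the bar, from edgeR fits without (grey) and with (blue) the batch as a block. Filled symbols have an adjusted p under 0.05: on day 1 these are 1 gene without the block and 8 with it in each genotype. Adgre1 and Marco are among the 8, which their filtering from cultured libraries favours. The bars are shorter with the block for the genes other than C1qa.

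Ptprc encodes CD45, the tyrosine phosphatase on the surface of all nucleated blood cells, and is the broadest leukocyte marker of the set. The gene lies at chr1:138062861-138175708 (minus strand) in GRCm38. In Krt8+/+ cells it stood at 8.84, 2.60 and 0.221 CPM on day 0 and at 23.1, 11.3 and 4.28 CPM on day 1, in the order of batches 1, 2 and 3. On day 7 it was 11.0, 4.48 and 2.32 CPM. The values within a batch moved together, yet the groups overlapped, because day 0 of batch 1 exceeded day 1 of batch 3. With the batch as a block Ptprc rose by 2.07 ± 0.41 (SE) on the log2 scale on day 1 (edgeR adjusted p = 0.000277).

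Ptprc then fell from day 1 to day 3 in Krt8+/+ cells, by 1.35 ± 0.38 (SE) on the log2 scale with the block (edgeR adjusted p = 0.0131). The call was lost when batch 1 or batch 2 was left out. Krt8-/- cells held it at 8.20, 1.82 and 0.309 CPM on day 0, at 14.9, 7.39 and 2.57 CPM on day 1 and at 7.32, 2.34 and 1.98 CPM on day 7. The rise on day 1 there was 1.64 ± 0.41 (SE) in log2 with the block (edgeR adjusted p = 0.00232). On day 7 batch 3 still gave 35 Ptprc reads in Krt8+/+ and 31 in Krt8-/-.

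Adgre1 encodes F4/80, an adhesion G protein-coupled receptor used as a classical marker of mouse macrophages. It was low throughout: 1.02, 0.975 and 0.111 CPM on day 0 and 8.59, 2.26 and 1.02 CPM on day 1 in Krt8+/+ cells, and 1.44, 0.911 and 0.155 followed by 6.01, 3.18 and 0.156 CPM in Krt8-/-. In batch 3 of Krt8-/- it had 2 reads on both days. Since only 2 of the 6 day 0 libraries reached the minimum of the filter, its calls against day 0 are counted with the others but read as no finding.

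In Krt8-/- cells Adgre1 fell again from day 1 to day 3, by 1.83 ± 0.66 (SE) in log2 with the block (edgeR adjusted p = 0.0461), a call lost when any 1 batch was left out. Adgre1 was 2.40, 0.482 and 0.0704 CPM on day 3 in Krt8-/- cells, against 9.18, 2.53 and 0.567 CPM in Krt8+/+. On day 7 batch 3 held no Adgre1 read in either genotype.

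Csf1r encodes the receptor for CSF1 and IL-34, the growth factors on which most macrophages depend, and it was not among the genes called higher on day 1. In Krt8+/+ cells it was 18.2, 14.5 and 9.74 CPM on day 0, 35.6, 12.2 and 3.80 CPM on day 1, and 14.2, 7.63 and 4.44 CPM on day 7. The Krt8-/- values were 13.7, 7.59 and 3.17 CPM on day 0, 16.2, 9.73 and 4.05 CPM on day 1, and 10.8, 3.27 and 2.62 CPM on day 7. The day 0 values lay within the range of the later days in both genotypes. On day 7 Csf1r was lower than on day 0 in 6 of 6 pairs, a count given without the share over all genes. In batch 3 of Krt8-/- it had 41 reads on both days and differed only through the scaling.

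On day 1 Csf1r changed by -0.11 ± 0.31 (SE) in log2 in Krt8+/+ (edgeR adjusted p = 0.772, with the block) and by 0.32 ± 0.31 (SE) in Krt8-/- (edgeR adjusted p = 0.408). On day 7 it was lower in Krt8+/+ by -0.84 ± 0.31 (SE) in log2 (edgeR adjusted p = 0.0267, with the block), while in Krt8-/- the change was -0.59 ± 0.32 (SE) and missed the threshold (edgeR adjusted p = 0.121). In batch 3 on day 0, Krt8+/+ held 88 Csf1r reads beside 2 Ptprc reads, 1 Mrc1 read and no Tyrobp read. The corresponding Krt8-/- library held 41 Csf1r reads beside 4 of Ptprc and 5 each of Mrc1 and Tyrobp.

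The ligands of this receptor moved in opposite directions. Csf1, the ligand, was 33.8, 29.4 and 29.4 CPM on day 0 in Krt8+/+ cells and 326, 176 and 210 CPM on day 1, and on day 7 it reached 865, 931 and 1814 CPM. Its rise was 2.91 ± 0.39 (SE) in log2 on day 1 (edgeR adjusted p = 4.23e-06) and 5.28 ± 0.43 (SE) on day 7 (edgeR adjusted p = 5.15e-09), both with the block. Il34, the second ligand, fell by 3.60 ± 0.25 (SE) in log2 on day 1 (edgeR adjusted p = 2.09e-09), from 34.6, 39.5 and 46.3 CPM to 2.94, 4.01 and 3.06 CPM. On day 7 Csf1 was highest in batch 3, the batch with the fewest macrophage transcripts, and on day 0 Il34 was too in Krt8+/+ cells. Of the 5 genes in the list of colony-stimulating factors and receptors, Csf1 and Csf2ra were called higher on day 1 and Il34 and Csf2 lower in both genotypes with the block, where 29.5% of all genes were called lower in Krt8+/+ and 28.2% in Krt8-/-. Csf2rb, the shared beta chain of the GM-CSF receptor, missed the call in both.

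Marco encodes a scavenger receptor with a collagen-like domain that binds inhaled particles and bacteria. It lies at chr1:120474538-120505024 (minus strand) in GRCm38. On day 0 only batch 1 held reads, 16 in Krt8+/+ (1.02 CPM) and 2 in Krt8-/- (0.144 CPM). On day 1 it was 7.27, 6.02 and 2.24 CPM in Krt8+/+ and 3.59, 5.38 and 0.467 CPM in Krt8-/-, so every day 1 library except batch 3 of Krt8-/- exceeded every day 0 library. Pooled over batches, day 1 held 204 reads against 16 on day 0 in Krt8+/+ and 129 against 2 in Krt8-/-, given as values only.

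On day 7 Marco reached 15.2 CPM in batch 1 of Krt8+/+ cells, with 2.07 CPM in batch 2 and no read in batch 3. Because it passed the filter only through cultured libraries, its calls against day 0 are counted with the others but read as no finding.

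Mrc1 encodes CD206, the macrophage mannose receptor. In Krt8+/+ cells it was 6.17, 1.08 and 0.111 CPM on day 0, 25.0, 13 and 3.12 CPM on day 1 and 23.4, 5.22 and 0.0663 CPM on day 7. In batch 3 the single day 0 read was followed by 46 reads on day 1, 60 on day 3 and 1 on day 7, so the transcript came and went within that batch. The Krt8-/- values were 4.68, 3.14 and 0.386 CPM on day 0 and 16.8, 9.40 and 4.44 CPM on day 1. The rise on day 1 was 2.81 ± 0.65 (SE) in log2 in Krt8+/+ (edgeR adjusted p = 0.00121) and 2.28 ± 0.64 (SE) in Krt8-/- (edgeR adjusted p = 0.00567), both with the block.

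Among other scavenger and engulfment receptors, Msr1, the class A scavenger receptor, stood in Krt8+/+ cells at 1.53, 0.108 and 0 CPM on day 0 and at 25.2, 12.7 and 2.51 CPM on day 1. Cd36, which binds oxidized lipids and averaged 2430 CPM on day 0, fell in Krt8+/+ cells by 2.85 ± 0.64 (SE) on the log2 scale with the block (edgeR adjusted p = 0.00089), without the order of batches on day 0. Mertk, an engulfment receptor, averaged 3.72 CPM on day 0, and Cd163, a marker of interstitial and other tissue macrophages, had no read in any of the 24 libraries. Of the 2 genes in the list that met the filter on day 0, Cd36 was called lower and none higher in either genotype. With the block, 29.5% of all genes were called lower on day 1 in Krt8+/+ and 28.2% in Krt8-/-.

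Tyrobp encodes DAP12 and Fcer1g the Fc receptor gamma chain, adapters that carry the signal of many activating receptors of myeloid cells. Tyrobp was 4.45, 3.47 and 0 CPM on day 0 in Krt8+/+ cells and 27.1, 26.5 and 6.11 CPM on day 1, and Fcer1g was 2.03, 1.52 and 0.221 CPM followed by 12.4, 10.9 and 1.49 CPM. In Krt8-/- cells Tyrobp went from 4.17, 2.23 and 0.386 CPM to 15.3, 16.8 and 4.13 CPM, and Fcer1g from 1.80, 0.911 and 0.0773 CPM to 6.64, 7.39 and 1.79 CPM. Both were higher on day 1 in every batch, and on day 1 the first and second batches were nearly level in both genes.

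Both adapters rose on day 1 with the block. Tyrobp rose by 3.41 ± 0.76 (SE) in log2 in Krt8+/+ (edgeR adjusted p = 0.000816) and by 2.88 ± 0.76 (SE) in Krt8-/- (edgeR adjusted p = 0.00361). Fcer1g rose by 2.87 ± 0.74 (SE) in Krt8+/+ (edgeR adjusted p = 0.00289) and by 3.07 ± 0.77 (SE) in Krt8-/- (edgeR adjusted p = 0.00235). On day 7 the batches had drawn apart. Tyrobp was 39.3, 9.21 and 0 CPM in Krt8+/+, its highest and one of its lowest values on the same day, and Fcer1g was 14.3, 4.06 and 0 CPM.

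Of 7 genes that work with these adapters 6 passed the filter, 3 of them within the day 0 libraries. Of these 3, Clec7a was called higher on day 1 in both genotypes with the block, where 27.7% of all genes were called higher in Krt8+/+ and 25.8% in Krt8-/-. The kinase Syk was called in Krt8-/- and not in Krt8+/+, without a test of that difference between genotypes. Clec7a, the beta-glucan receptor Dectin-1, rose by 4.30 ± 0.62 (SE) in log2 in Krt8+/+ (edgeR adjusted p = 1.12e-05), from 7.25, 2.06 and 0.886 CPM to 133, 69.1 and 5.02 CPM. Syk averaged 2.00 CPM on day 0. None of the 6 was called lower in either genotype.

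Cd68 and Ctss are products of the endosome and lysosome, a glycoprotein of the lysosomal membrane and the protease cathepsin S, and they gave the most reads of the 10 genes. In GRCm38 Cd68 spans chr11:69664213-69666153 (minus strand) and Ctss chr3:95526786-95556403 (plus strand). Per kilobase of exon, over the union of all annotated exons of a gene, the mean level over the 24 libraries was 30.4 CPM for Ctss, 18.4 for Cd68, 14.7 for Tyrobp and 4.54 for Fcer1g. Csf1r (1.79), Marco (1.47) and Mrc1 (1.22) followed, then Adgre1 (0.646), C1qa (0.356) and Ptprc (0.337), the last over an exon union of 18313 bases, which lowers its value. The ranges over libraries overlapped between all neighbours in this order.

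Promoter sequence was at hand for 6 of the 10 genes, 7 promoters in all (RefSeq, GRCm38.p6). Those of Cd68 and Ctss are shown because these genes carried the most reads and moved together, 150 bases upstream of the start and 5′ to 3′ on the gene's strand, at chr11:69666171-69666320 (minus strand) and chr3:95526636-95526785 (plus strand). Capitals mark TGAGTCA, the AP-1 motif, in Cd68, and GAAANNGAA, a core of interferon response elements, in Ctss.
Cd68: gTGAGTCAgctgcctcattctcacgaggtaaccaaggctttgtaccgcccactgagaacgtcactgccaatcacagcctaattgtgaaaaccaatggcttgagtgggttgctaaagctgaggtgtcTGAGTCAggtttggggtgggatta
Ctss: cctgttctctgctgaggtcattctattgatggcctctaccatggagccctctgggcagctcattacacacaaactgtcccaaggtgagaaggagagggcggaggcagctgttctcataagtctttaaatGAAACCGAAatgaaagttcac
Both strands of the 250 bases upstream were searched for these motifs, which were picked after the sequences had been seen. TGAGTCA was in 1 of the 7 promoters and in 4.46% of 32851 promoters of the same length, and GAAANNGAA in 1 of 7 and in 7.13%. GAGGAAGT, the motif of the myeloid factor PU.1, was in 0 of 7 (2.44% of all), and the shorter GGAAGT, which GAGGAAGT contains, in 3 of 7 (19.7%): both promoters of Ptprc and that of Mrc1. No entry was at hand for Adgre1, Csf1r, Tyrobp or C1qa.

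Cd68 was 10.6, 8.88 and 4.21 CPM on day 0 in Krt8+/+ cells and 79.6, 48.6 and 10.8 CPM on day 1, and on day 7 it was 63.4, 19.3 and 2.39 CPM. Krt8-/- cells had 7.56, 9.52 and 3.79 CPM on day 0, 49.2, 38.8 and 9.50 CPM on day 1 and 30.3, 11.4 and 2.55 CPM on day 7. In Krt8+/+ the 3 day 1 values lay above the 3 day 0 values, with 10.8 CPM in batch 3 on day 1 just over 10.6 CPM in batch 1 on day 0. The change on day 1 was 2.53 ± 1.01 (SE) in log2 without the block (edgeR adjusted p = 0.0387) and 2.29 ± 0.45 (SE) with it (edgeR adjusted p = 0.000285).

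Ctss was 21.8, 11.0 and 0.996 CPM on day 0 in Krt8+/+ cells, 146, 92.1 and 12.6 CPM on day 1 and 129, 41.5 and 1.39 CPM on day 7. Krt8-/- cells had 16.5, 12.1 and 0.464 CPM on day 0, 80.9, 61.3 and 14.5 CPM on day 1 and 72.2, 15 and 2.3 CPM on day 7. It rose on day 1 by 3.09 ± 0.51 (SE) in log2 in Krt8+/+ (edgeR adjusted p = 4.51e-05) and by 2.97 ± 0.51 (SE) in Krt8-/- (edgeR adjusted p = 7.46e-05), the smallest adjusted p of the 10 genes in either genotype. Of the 10 genes it was the 1 higher on day 7 than on day 0 in 6 of 6 pairs, a count given without the share over all genes.

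Other genes of lysosomes and antigen processing were mixed. Of the 9 in the list, Ctsd and Ctsl, cathepsins of most cell types, were called higher on day 1 in both genotypes with the block, and Cd74, Cst3, Lamp1, Lamp2 and Lgmn lower. Of all genes, 27.7% were called higher and 29.5% lower in Krt8+/+, and 25.8% and 28.2% in Krt8-/-. Lyz2, lysozyme M, which both macrophages and AEC2 cells make, had 34647, 40537 and 44349 CPM on day 0 in Krt8+/+ cells, the reverse of the order of batches seen for Ctss. On day 7 it had 3019, 839 and 15.5 CPM, now in that order. Cd74, the invariant chain, averaged 5320 CPM on day 0.

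C1qa encodes a chain of C1q, the recognition unit of the classical complement pathway, and was the lowest of the 10 genes in reads. It had 14, 6 and 0 reads on day 0 and 15, 6 and 0 reads on day 1 in Krt8+/+ cells, and 6, 1 and 0 followed by 3, 1 and 13 reads in Krt8-/-. No change was detectable at this depth. Its partners C1qb and C1qc averaged 0.232 and 0.424 CPM on day 0 and neither was called on day 1 in either genotype.

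After day 1 few of the genes were called. From day 1 to day 3 in Krt8+/+ cells 0 of 10 genes were called lower without the block (11.9% of all genes tested) and 1 of 10 (Ptprc) with it (13.6%). In Krt8-/- cells it was 0 of 10 (10.2%) and 1 of 10 (Adgre1) with the block (12.1%), a call that the filtering of Adgre1 favours. Without the block, none of the 10 had an unadjusted p under 0.05 in either genotype by edgeR or by DESeq2. Cd68, Ctss and Ptprc were lower on day 3 in 6 of 6 pairs, a count given without the share over all genes, so it is no more than a description.

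Between day 3 and day 7 no gene of the 10 was called by edgeR in either direction, without the block (6.58% of all genes called in Krt8+/+ and 10.5% in Krt8-/-) or with it (8.26% and 12.5%). The count at an unadjusted p under 0.05 was 0 by edgeR in both fits and by DESeq2. The fold of the summed level from day 3 to day 7 was 1.16, 1.19 and 0.377 in Krt8+/+ batches 1, 2 and 3 and 0.929, 0.568 and 0.481 in Krt8-/-.

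Day 7 compared with day 0 therefore depended on the batch. In Krt8+/+ cells the summed level was 4.22-fold higher in batch 1, 2.13-fold higher in batch 2 and 0.696 of day 0 in batch 3, and in Krt8-/- the folds were 2.80, 1.15 and 1.25. Without the block no gene of the 10 was called by edgeR in Krt8+/+, where 28.6% of all genes were called higher and 30.2% lower, and none in Krt8-/- (28.6% higher). In each genotype 1 of the 10 had an unadjusted p under 0.05 by edgeR and DESeq2 called 1, in both cases Marco. With the block, 6 of the 7 genes that met the filter on day 0 were called higher in Krt8+/+ (30.2% of all genes), namely Ptprc, Cd68, Mrc1, Ctss, Tyrobp and Fcer1g, and Csf1r lower (31.1%). In Krt8-/- cells 1 of the 7 was called higher with the block, Ctss (29.9%). Marco was called besides in both genotypes, which its filtering from cultured libraries favours.

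These day 7 counts rested on single batches. With the block, of the 7 genes, 1 was called in Krt8+/+ without batch 2, 2 without batch 1 and 5 without batch 3. In Krt8-/- it was 1 without batch 2, 0 without batch 1 and 3 without batch 3. The share of all genes called in those fits is not given. The adjusted p of Ptprc with all batches was 0.0496 in Krt8+/+, next to the threshold.

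In batch 3 of Krt8+/+ cells on day 7 the genes parted. Adgre1, Marco, Tyrobp and Fcer1g had 0 reads and Mrc1 had 1 read, whereas Csf1r had 67, Cd68 36, Ptprc 35 and Ctss 21. The alveolar macrophage markers Siglecf, Itgax and Chil3 had no read there, while the leukocyte surface protein Cd53 stood at 3.78 CPM. With 14323772 reads in the library, 0 reads for a gene say only that it lay below what this depth detects.

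Ratios within a library remove the share of other RNA, and here the counts were set against Ptprc. In batch 1 of Krt8+/+ cells the ratio of Ctss to Ptprc reads was 2.47, 6.30, 8.90 and 11.7 over days 0, 1, 3 and 7, and in Krt8-/- it was 2.01, 5.43, 7.57 and 9.87. In batch 2 it was 4.25, 8.16, 8.67 and 9.28 in Krt8+/+ and 6.67, 8.30, 7.32 and 6.43 in Krt8-/-. The steady increase thus belonged to 3 of these 4 series of libraries.

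The ratio of Tyrobp to Ptprc in batch 1 was 0.504, 1.17, 1.73 and 3.57 over days 0, 1, 3 and 7 in Krt8+/+ cells and 0.509, 1.03, 1.5 and 2.44 in Krt8-/-. In batch 2 it did not climb steadily, at 1.33, 2.35, 1.44 and 2.06 in Krt8+/+ and 1.22, 2.27, 2.07 and 2.40 in Krt8-/-. In all 4 series it was lowest on day 0. In batch 3 the ratio on days 1, 3 and 7 was 1.43, 0.96 and 0 in Krt8+/+ and 1.61, 0.870 and 0.290 in Krt8-/-.

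The ratio of Csf1r to Ptprc in batch 1 was 2.06, 1.54, 1.53 and 1.28 over the 4 days in Krt8+/+ cells and 1.68, 1.09, 1.01 and 1.47 in Krt8-/-. In batch 2 it was 5.58, 1.08, 2.26 and 1.70 in Krt8+/+ and 4.17, 1.32, 2.12 and 1.40 in Krt8-/-, over 24 and 18 Ptprc reads on day 0. It was highest on day 0 in each of these series and had no common course after that. The 10 genes therefore did not keep 1 ratio to Ptprc across days.

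**Figure D3:**
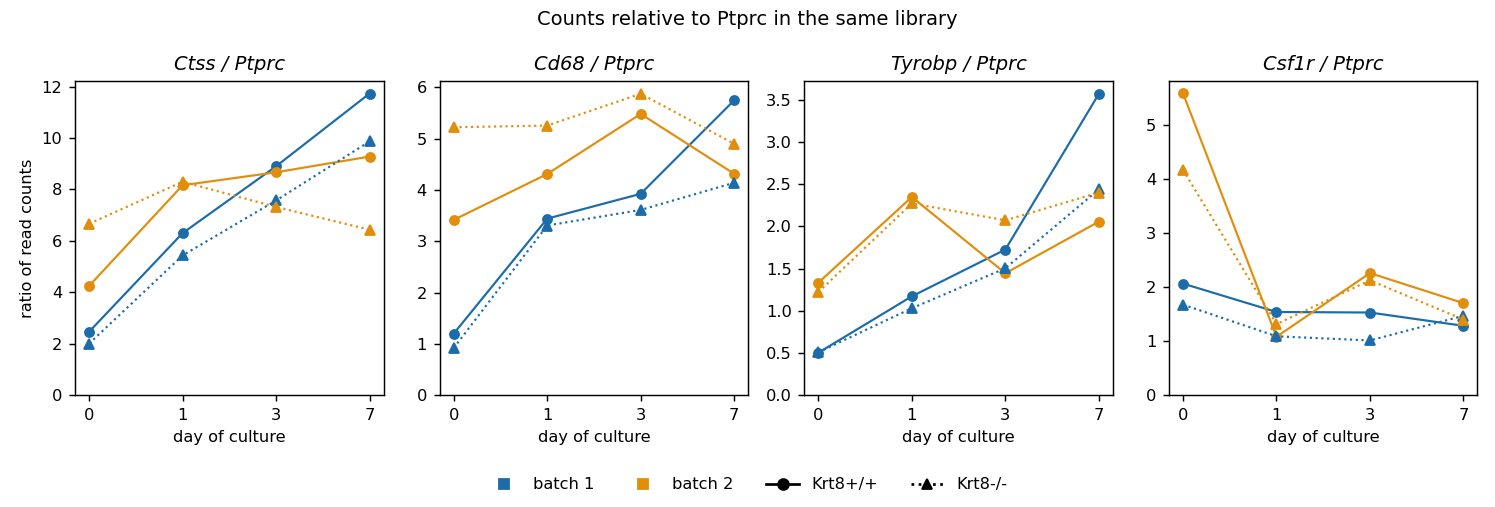
Ratio of read counts of Ctss, Cd68, Tyrobp and Csf1r to those of Ptprc in the same library, against day of culture, for batches 1 and 2 and both genotypes, with 1 library per point. In batch 1 Ctss and Tyrobp gain on Ptprc from day to day, from 2.47 to 11.7 for Ctss in Krt8+/+, while Csf1r does not, and in batch 2 Tyrobp shows no steady gain. Batch 3 is left out because Ptprc had 2 and 4 reads there on day 0. Its Ctss ratio was 2.95 on day 1 and 0.6 on day 7 in Krt8+/+, and 5.64 and 1.16 in Krt8-/-.

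Between genotypes no gene of the 10 was called. By edgeR without the block, 0 of 10 passed on days 0, 1, 3 and 7, where 0.0277%, 0.0166%, 0.0166% and 0.0166% of all genes were called, and the same counts and percentages were obtained with the block. Without the block no gene had an unadjusted p under 0.05 on any day by edgeR or DESeq2. With the block day 0 had 1 (Csf1r), day 1 had 0, day 3 had 1 (Adgre1) and day 7 had 2 (both of these), each lower in Krt8-/- and each with an edgeR adjusted p of 1. The test of whether the course over days differed between genotypes called 0 of 10 by edgeR and by DESeq2 (0.00554% of all genes by edgeR in both fits), with none at an unadjusted p under 0.05.

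The point estimates leaned to lower levels in Krt8-/- cells all the same. The median log2 difference of the 10 genes without the block was -0.26, -0.64, -0.33 and -0.94 for days 0, 1, 3 and 7. The medians over all genes were -0.00398, -0.0116, 0.00266 and 0.00422. Within batches, 19, 24, 20 and 21 of 30 pairs were lower in Krt8-/- on days 0, 1, 3 and 7, and 8, 6, 10 and 7 were higher, with any others level. These pairs are 10 genes in 3 batches that share their libraries, so they are not independent. The share of such pairs over all genes is not given here. In batch 1, where the genotypes also differed in sex-linked transcripts, 9, 10, 10 and 9 of 10 were lower. The ratio of summed levels, Krt8-/- over Krt8+/+, was 0.519 in batch 1, 0.463 in batch 2 and 1.00 in batch 3 on day 7. An adjusted p of 1 for each gene does not show that the genotypes were alike, since the SE of these differences without the block ran from 0.714 to 2.54 in log2.

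**Figure D4:**
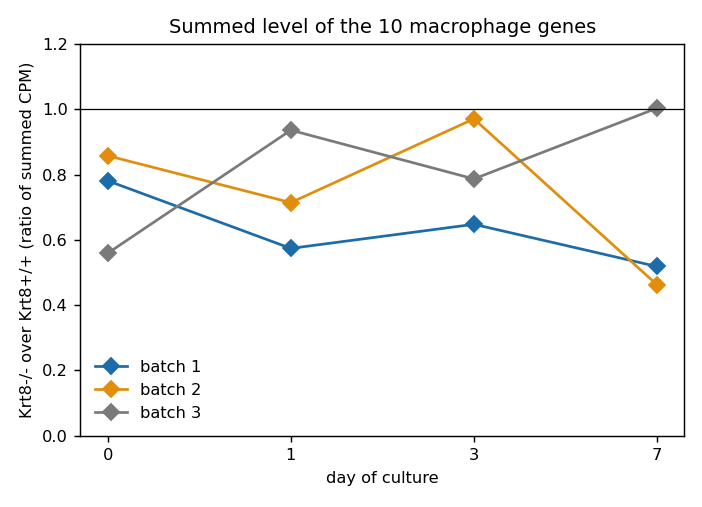
Ratio of the summed level of the 10 macrophage genes in Krt8-/- to that in Krt8+/+ cells of the same batch, against day of culture, with 1 point per batch and day. The ratios lie between 0.463 and 1.00, and on day 7 batches 1 and 2 sit near each other while batch 3 is at 1.00.

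Marker lists of other cells were read beside the macrophage genes. As a sum the alveolar macrophage markers followed the 10 genes on day 1. Their summed level ran from 5.76 to 130 CPM on day 0, from 36.7 to 421 CPM on day 1 and from 0.862 to 275 CPM on day 7. Chil3 (38.2 CPM on average on day 0) and Ear2 (5.26 CPM) were the most abundant of them on day 0. With the block, 6 of the 6 that met the filter on day 0 were called higher on day 1 in Krt8+/+ (27.7% of all genes) and 5 of 6 in Krt8-/- (25.8%). By day 7 the list had parted. Chil3 was lower than on day 0 in every batch of both genotypes, from 95.6, 38.5 and 2.10 to 71.7, 15.4 and 0 CPM in Krt8+/+. Siglecf, Itgax and Ear2 were higher in batches 1 and 2 of both genotypes. Siglecf went from 4.01, 1.41 and 0 to 18.4, 5.14 and 0 CPM in Krt8+/+.

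The 13 leukocyte-wide genes were split. Of the 8 that met the filter on day 0, 4 were called higher on day 1 in Krt8+/+ (27.7% of all genes) and 5 in Krt8-/- (25.8%) with the block. Cd53, Itgb2, Laptm5 and Spi1 were among them in both. Laptm5, a lysosomal protein of blood cells, averaged 6.04 CPM on day 0. Ptpn6, a phosphatase that epithelial cells also make, averaged 30.9 CPM on day 0 and was called lower in both genotypes.

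The monocyte and interstitial macrophage markers had a summed level of 40.6 to 50.9 CPM on day 0 and 12.1 to 39.1 CPM on day 7. Most of it on day 0 was Ly6c2 (26.8 CPM on average) and Cd14 (14.6 CPM), while Cx3cr1 was at or under 1.03 CPM and Ccr2 at or under 4.32 CPM in every library. With the block Ly6c2 was called lower on day 1 in both genotypes, where 29.5% of all genes were called lower in Krt8+/+ and 28.2% in Krt8-/-.

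Markers of other blood cells differed in level from list to list. The summed neutrophil markers were at most 4.90 CPM in any library, led by Retnlg at 1.38 CPM and S100a9 at 0.371 CPM on average on day 0. T and NK cell markers were at most 8.08 CPM (Lck 0.896 and Cd3e 0.383 CPM on day 0). Mast cell and basophil markers were at most 0.628 CPM on days 0 and 1 (Ms4a2 0.0933 and Cpa3 0.0662 CPM on average on day 0) and at most 13.7 CPM on day 7. That day 7 value, in batch 1 of Krt8+/+, was mostly the single gene Mcpt8 (13.1 CPM, 193 reads). Cpa3 and Mcpt4 had no read in any day 7 library, and Ms4a2 was at or under 0.545 CPM. B cell markers were 15.8 to 32.5 CPM on day 0, most of it Cd79b (16.8 CPM on average, with Cd79a at 1.81 CPM), and at most 0.400 CPM on day 7. Dendritic cell markers were 10.2 to 18.8 CPM on day 0, of which Zbtb46, which endothelial cells also make, averaged 12.9 CPM, with Ccr7 at 0.196 CPM.

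Among these lists the calls on day 1 in Krt8+/+ cells with the block were Cd79b and Zbtb46, both lower, beside Retnlg, a low gene that passed the filter through day 0 libraries. Of the T and NK cell genes 3 passed the filter and of the mast cell genes 1, and none of these was called. Fibroblast markers were 178 to 585 CPM on day 0, led by Dcn (192 CPM) and Col1a2 (65.8 CPM). Endothelial markers were 12.8 to 30.9 CPM on day 0, of which Kdr averaged 16 and Pecam1 1.76 CPM. On day 1 with the block, 3 of 6 fibroblast genes were called lower and 1 higher in Krt8+/+, 1 of the 3 tested endothelial genes lower, 7 of 7 AEC2 genes lower and 0 of 4 epithelial genes in either direction. Of all genes tested, 29.5% were called lower and 27.7% higher there, so the fibroblast and endothelial counts are too small to set apart from that share. How far the fall of the AEC2 transcripts, which made up much of the day 0 RNA, enters the rise of the macrophage genes in CPM was not tested.

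**Figure D5:**
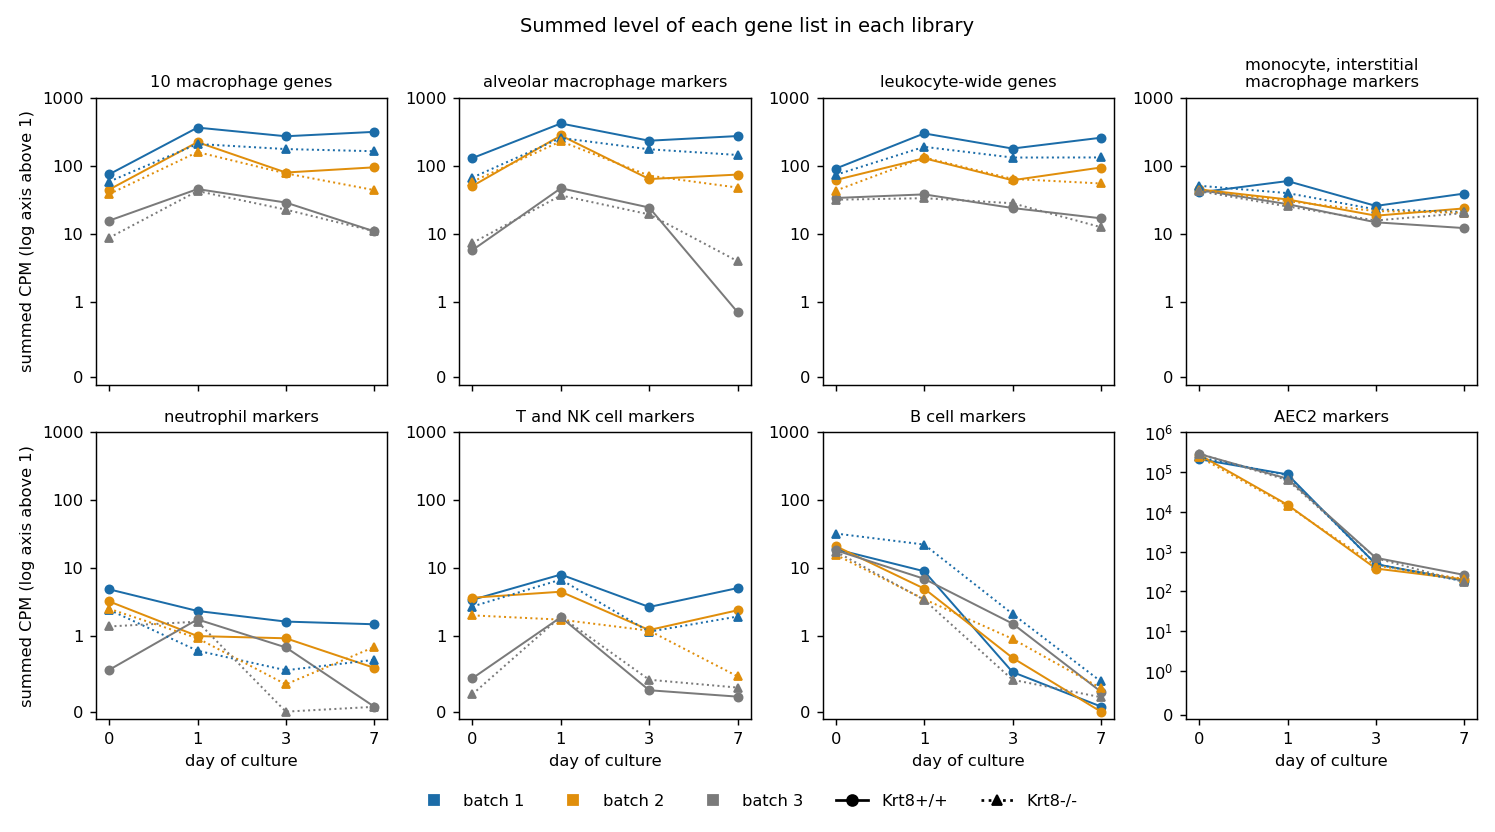
Summed level of 8 gene lists in each library, in CPM on an axis that is logarithmic above 1 and linear below, against day of culture, with colours for batches and symbols for genotypes. The 10 macrophage genes and the alveolar macrophage markers are lowest in batch 3 and peak on day 1, the neutrophil and the T and NK cell markers stay at or under 8.08 CPM, and the AEC2 markers fall from day 0 to day 7 in every batch.

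The genes whose levels ran closest to the macrophage genes over the 24 libraries included several leukocyte genes. By Pearson's r of log2 CPM, those closest to Ptprc were Bhlhe41 (0.938), Selplg (0.934), Lilrb4a (0.927), Abcg1 (0.920) and Sla (0.911), and those closest to Cd68 were Atp6v0d2 (0.977), Spi1 (0.953), Csf2rb2 (0.950), Msr1 (0.947) and Plek (0.946). Atp6v0d2, a subunit of the vacuolar proton pump, was also on the list of alveolar macrophage markers, and Spi1 encodes PU.1. By Spearman's rho 3 of the 5 genes for Ptprc and 1 of the 5 for Cd68 were the same. Among the 9 macrophage genes other than C1qa the r of pairs ran from 0.485 to 0.969. These libraries share batches and days, so the values are descriptions over 24 points that are not independent.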

How the data were processed

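Bulk RNA-seq was available for 24 libraries in 8 groups of 3. The authors deposited a table of whole-number read counts per gene, with no normalization. The submitters' processing notes name cutadapt 2.3, STAR 2.7.8a, RSEM 1.3.3 and GRCm38 without giving their order, and RSEM estimates need not be whole, so the deposited counts may have been rounded. Gene symbols were matched by identifier for 55154 of 55421 identifiers. Counts in identifiers without a symbol made up 0.0192% to 0.0644% of a library, and 5 reporter rows that held 0 counts were left out.

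Genes with low counts were removed with filterByExpr (minimum count 10, minimum total 15), TMM factors were computed, and all 8 groups were fitted in a single model with 16 residual degrees of freedom, using the quasi-likelihood F test of edgeR 4.0.16 with limma 3.58.1 in R 4.3.3. P-values were adjusted by Benjamini-Hochberg over 18046 genes and called under 0.05. The same model with the batch as a block had 14 residual degrees of freedom. The batch numbers pair the libraries because the labels give each number a shared date, and the correlation of same-numbered deviations from the group means ran from -0.0345 to 0.548 over comparisons. DESeq2 1.42.0 was an alternative, as were other size factors, no filter, only the 6 libraries of a comparison and leaving out each batch. The block with a batch left out and DESeq2 with the block were added after seeing the data. The tests were tried on simulated counts first.

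No replicate pair was a duplicate: over the 24 pairs within groups the chi-square per gene ran from 9.13 to 109. The 10 genes and the marker lists were chosen with earlier results of these data known. The genes named outside the 10 are the most abundant of each list on day 0, those called on day 1, and a few chosen after their values were seen. Lengths are the union of annotated exons.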

Additional observations from a re-analysis of the deposited data

How the results depend on the processing

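The number of the 10 genes called was 1 on day 1 in each genotype and 0 on day 7 against day 0 and in the other comparisons. DESeq2 size factors in place of TMM changed none of these counts. The batch as a block, which uses the pairing of the libraries, raised the count on day 1 to 8 in each genotype, on day 7 against day 0 to 8 in Krt8+/+ and 2 in Krt8-/-, and on day 3 against day 1 to 1 in each, and it changed no other count. DESeq2 called 1 and 2 on day 1 in Krt8+/+ and Krt8-/-, and 1 in each on day 7 against day 0. DESeq2 with the block called 8 and 7 on day 1, 1 and 2 on day 3 against day 1, and 8 and 2 on day 7 against day 0. Without the filter the counts were 4 and 2 on day 1 and 1 and 1 on day 7 against day 0. With only the 6 libraries of a comparison they were 6 and 5 on day 1. Leaving out 1 batch gave 0 to 5 and 0 to 4 on day 1, and 0 to 5 and 0 to 1 on day 7 against day 0, without the block. With the block it gave 7 to 8 and 5 to 8 on day 1, 0 to 1 and 0 on day 3 against day 1, and 2 to 6 and 1 to 4 on day 7 against day 0. These counts include Adgre1 and Marco, which passed the filter only with cultured libraries. Over the 7 genes that met it on day 0 the block gave 6 in each genotype on day 1, and 7 and 1 on day 7 against day 0. The cause of these shifts was not tested, and the share of all genes called with a batch left out is not given.

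Directions turned only where no call was made, in these log2 values. On day 1 in Krt8+/+, Csf1r changed by -0.11 with the block, -0.0596 in DESeq2 with the block, -0.61 to 0.55 with a batch left out, and -0.74 with the block without batch 1. C1qa changed there by 0.0479 with DESeq2 size factors, 0.0917 in DESeq2, 0.00706 without the filter, 0.26 and 0.0523 without batch 2 or 3, and 0.21 and 0.00983 in those fits with the block. In Krt8-/- on day 1 C1qa ranged from -0.80 to 1.63 with a batch left out, and was -0.72 with the block without batch 3. On day 7 against day 0 in Krt8+/+, Adgre1 ranged from -0.0657 to 2.38 with a batch left out and was -0.27 with the block without batch 1, and C1qa was 0.0106 with the block without batch 2 and 0.0388 in DESeq2 with the block. In Krt8-/- on day 7, with a batch left out, Ptprc ranged from -0.0631 to 1.06, Adgre1 from -2.69 to 0.29 and Mrc1 from -0.0956 to 1.68, and Cd68 was -0.12 with the block without batch 1. Counts near 0 on day 0 in batch 3 limit the precision of Marco, Adgre1, Mrc1, Tyrobp, Fcer1g and C1qa.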
